A study of Homo sapiens with 6 samples.

Results

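The 51 genes described here encode proteins that copy DNA or are made for S phase. They were taken as a list of gene symbols covering origin licensing, the replicative helicase, polymerases, the sliding clamp, nucleotide supply, checkpoint control and chromatin assembly. The list was chosen with earlier results of these data known. All 51 were measured, among 19676 genes in the table. The cells were A375, an established human melanoma line whose BRAF gene is mutated, and the platform was the Affymetrix array, with 6 arrays for 6 conditions. Cultures kept for 6 h received 10 µM vemurafenib (VEM in the plots), 100 nM AT9283, both drugs at those doses, or the solvent DMSO. Cultures kept for 16 h received 10 µM vemurafenib or DMSO. All 6 cultures were of this single cell line in serum-containing medium, so every condition shares its genotype. Vemurafenib inhibits mutant BRAF, the kinase upstream of ERK signalling in these cells. AT9283 is an inhibitor with several kinase targets, the Aurora kinases and JAK2 included.

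DNA replication begins with licensing, in which the origin recognition complex (ORC), CDC6 and CDT1 load the ring of MCM2 to MCM7 onto DNA in G1. In S phase, kinases turn that ring into the CMG helicase (CDC45, MCM2 to MCM7 and GINS), and polymerases, a sliding clamp and single-strand binding proteins follow it. Many of these genes are known targets of the E2F transcription factors, which RB holds back until cyclin D kinases phosphorylate it, and BRAF and ERK signalling is known to support cyclin D expression in melanoma cells.

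The values are deposited probe set intensities, given here on the log2 scale, and a gene was called changed when it differed by at least 1 (2-fold) and reached log2 6 (an intensity of 64, the floor) on the higher array. Calls by this rule carry no p-value. With 1 array per condition no difference could be checked on replicates, and precision is limited by how few arrays there are. The median intensity ranged from 19.79 to 21.29 over the arrays, and the share of genes that reached the floor from 44.7% to 46.1%. The melanocyte lineage genes SOX10 and MITF lay above the floor on all 6 arrays, at 8.32 to 9.14 and 8.63 to 9.66. The pigment genes PMEL, MLANA and TYR lay below it on all 6, as did S100A1. S100B reached the floor only under vemurafenib at 16 h (6.15), and VIM lay at 13.23 to 13.37. Of 9 markers of other cell types, 7 (EPCAM, CDH1, PTPRC, CD3E, PECAM1, ALB and DCN) lay below the floor on all arrays and COL1A1 lay at 6.75 to 6.95. The epithelial keratin KRT5 had 6.40 under vemurafenib at 16 h against 5.16 in DMSO, and its part in the results below was not tested. The 2 arrays at 16 h held the same intensity, to 2 decimals, on 4493 probe sets (8.23%), against 1.08% to 1.34% for pairs of 6 h arrays and 0.154% to 0.189% for pairs across the times. Joint normalization of the times is not stated, and in a level set across them time and processing cannot be told apart. Vemurafenib minus DMSO within a time point does not cross them.

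After 16 h of vemurafenib, 32 of the 50 members that reached the floor fell and 0 rose, where 5.79% of the 9469 genes at the floor fell and 5.19% rose. Because the members were chosen with earlier results of these data known, this contrast is a description and no independent test. The median difference over all 51 members was -1.17 on the log2 scale, so the median member kept 44.3% of its DMSO intensity. Over all genes at the floor the median difference was -0.00 with an SD of 0.71. The members ranged from MCM10, at -3.16, to ORC3, at 0.05. ORC3 had the only positive difference, RFC5 had a difference of 0.00 on the probe set used, and the other 49 were negative, although those of RPA3 and TK1 turned to 0.07 and 0.01 under quantile normalization. CLSPN, which encodes the checkpoint adaptor claspin, lay below the floor on all 6 arrays and is not among the 50. In RNA from a whole culture, fewer cells in S phase and less RNA per cell cannot be told apart. Among the falling genes, 3 (MCM10, CDC45 and CDC25A) lay below the floor under vemurafenib, so the size of their falls depends on values near background. When probe sets whose suffix marks them as shared or cross-hybridizing were left out, 38 members remained measured and 19 fell, with a median of -1.01, where 6.1% of 6573 genes fell and 5.25% rose. Without those probe sets the falling members ORC6, CDT1, MCM2, MCM7, CDC45, DBF4, FEN1, DTL, UNG and MCM8 were not measured. GINS2, POLA2 and CHAF1A then missed the size rule, each on a probe set under the floor. Quantile normalization ended the calls of CDT1, DBF4, RPA2 and UNG, and the mean over a gene's probe sets those of CDT1, GINS2, GINS4 and POLA2. Adding 16 to each value before log2 ended those of CDT1 (-0.95), GINS4 (-0.90), DBF4 (-0.97), RPA2 (-0.97) and UNG (-0.99).

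**Figure D1:**
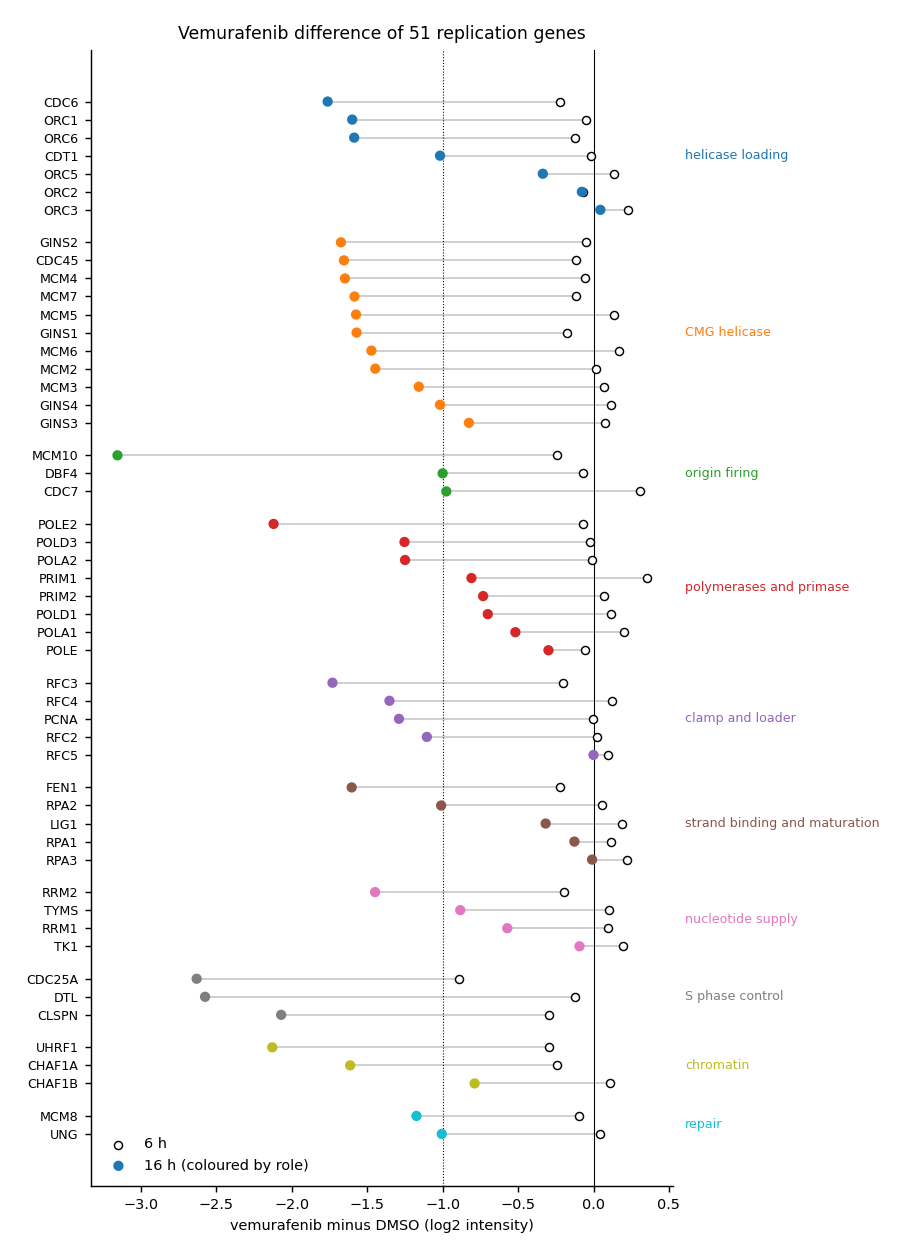
Vemurafenib minus DMSO in log2 intensity for the 51 genes, grouped by role and ordered within each role by the 16 h difference. Filled points are 16 h, open points 6 h, with 1 array per condition and no error bars. The dotted line marks a difference of -1. At 6 h the points lie between -0.89 and 0.35, and at 16 h between -3.16 and 0.05.

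**Figure D2:**
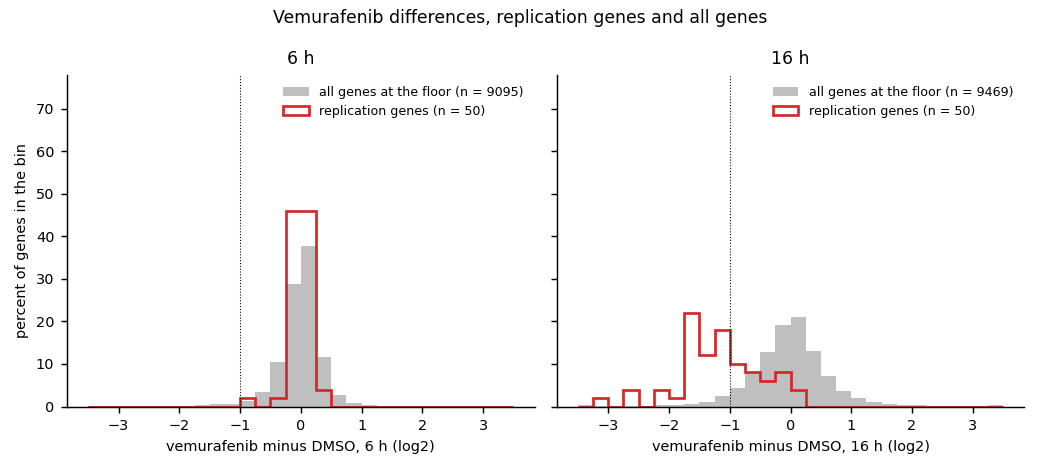
Share of genes, in percent, per bin of the vemurafenib difference in log2 intensity, for the 50 replication genes at the floor (red outline) and all genes at the floor (grey), at 6 h on the left and 16 h on the right. The red outline sits over the grey at 6 h and to its left at 16 h. The medians over all 51 members, CLSPN included, were -0.00 at 6 h and -1.17 at 16 h. Over all genes at the floor they were 0.02 and -0.00.

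Since most members moved together at 16 h, their promoters were searched for the letters of the E2F core, TTTNGCGC, and for CCAAT, the box that NF-Y is known to bind, each on either strand. N was left free and stands for any base. RefSeq promoters of GRCh38.p14, from 250 bases before to 50 after the gene start, were used for 45 of the 51 members. The other 6 were MCM4, MCM5, GINS4, POLD3, RPA2 and RPA3. The E2F core was found in 17 of these 45 (37.8%), against 1.79% of all 35116 promoters and 2.90% of the 15306 genes on the array with a promoter. CCAAT was found in 28 (62.2%), against 34.6% of all promoters and 41.8% of those genes, and 13 members held both. Members with the E2F core had a median difference of -1.47 at 16 h, and 14 of 17 fell. Members without it had a median of -0.99, and 13 of 28 fell. The difference between these medians was not tested. MCM10, with the lowest difference of all, held no E2F core in this window. With CCAAT the median was -1.46 and without it -1.0. Of 22 E2F core matches, 16 in 13 members lay between 100 bases before and 50 after the start. Overlapping matches on opposite strands, as in MCM2 and MCM6, were counted separately. A match describes letters in a window and not a bound site. Many of these genes are known E2F targets. A higher share of the E2F core than over all promoters could therefore be foreseen from the choice of genes. It is no outcome of the 16 h values.

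The 6 members with the E2F core that had the lowest differences at 16 h are printed with ORC3, the member with the highest difference, which has CCAAT but no E2F core. Each sequence runs 5′ to 3′ on the gene's own strand, with matches to either motif, on either strand, in capitals. The CDC25A promoter is at chr3:48188368-48188667 on the minus strand, DTL at chr1:212035498-212035797 on the plus strand, UHRF1 at chr19:4909894-4910193 on the plus strand, POLE2 at chr14:49688165-49688464 on the minus strand, CDC6 at chr17:40287629-40287928 on the plus strand, ORC6 at chr16:46689409-46689708 on the plus strand and ORC3 at chr6:87589885-87590184 on the plus strand, all in GRCh38.p14.
CDC25A: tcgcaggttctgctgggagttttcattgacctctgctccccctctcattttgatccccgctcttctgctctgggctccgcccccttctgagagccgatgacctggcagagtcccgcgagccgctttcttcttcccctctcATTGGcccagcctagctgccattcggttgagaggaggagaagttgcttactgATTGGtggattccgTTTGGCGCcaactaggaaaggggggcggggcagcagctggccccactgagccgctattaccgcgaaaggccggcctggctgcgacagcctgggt
DTL: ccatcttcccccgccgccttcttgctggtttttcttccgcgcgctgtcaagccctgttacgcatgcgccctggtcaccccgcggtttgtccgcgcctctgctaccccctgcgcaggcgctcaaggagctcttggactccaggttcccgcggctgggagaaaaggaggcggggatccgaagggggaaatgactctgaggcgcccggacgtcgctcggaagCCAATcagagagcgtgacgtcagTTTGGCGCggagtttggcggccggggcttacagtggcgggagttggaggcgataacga
UHRF1: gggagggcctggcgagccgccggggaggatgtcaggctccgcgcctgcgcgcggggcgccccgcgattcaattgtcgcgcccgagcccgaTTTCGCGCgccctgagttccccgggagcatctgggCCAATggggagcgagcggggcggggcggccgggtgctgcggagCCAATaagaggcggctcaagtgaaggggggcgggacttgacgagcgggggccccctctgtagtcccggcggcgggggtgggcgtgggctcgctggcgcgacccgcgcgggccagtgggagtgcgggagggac
POLE2: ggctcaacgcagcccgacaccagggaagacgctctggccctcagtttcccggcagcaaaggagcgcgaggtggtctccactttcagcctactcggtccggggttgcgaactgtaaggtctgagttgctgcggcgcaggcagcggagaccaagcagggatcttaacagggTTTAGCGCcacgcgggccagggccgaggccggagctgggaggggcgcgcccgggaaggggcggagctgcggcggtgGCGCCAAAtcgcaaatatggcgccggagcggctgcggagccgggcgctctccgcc
CDC6: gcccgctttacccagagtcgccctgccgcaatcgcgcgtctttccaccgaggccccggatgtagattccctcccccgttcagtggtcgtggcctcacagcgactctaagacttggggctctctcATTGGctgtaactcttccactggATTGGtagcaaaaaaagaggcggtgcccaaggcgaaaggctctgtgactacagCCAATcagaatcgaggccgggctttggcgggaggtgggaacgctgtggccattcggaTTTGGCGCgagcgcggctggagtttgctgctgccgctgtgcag
ORC6: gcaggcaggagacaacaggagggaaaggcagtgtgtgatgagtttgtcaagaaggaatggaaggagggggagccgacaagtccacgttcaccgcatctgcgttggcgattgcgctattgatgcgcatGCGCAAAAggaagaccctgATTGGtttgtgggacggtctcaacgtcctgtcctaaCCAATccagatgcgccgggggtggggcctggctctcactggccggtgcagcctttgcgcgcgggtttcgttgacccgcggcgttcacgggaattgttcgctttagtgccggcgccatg
ORC3: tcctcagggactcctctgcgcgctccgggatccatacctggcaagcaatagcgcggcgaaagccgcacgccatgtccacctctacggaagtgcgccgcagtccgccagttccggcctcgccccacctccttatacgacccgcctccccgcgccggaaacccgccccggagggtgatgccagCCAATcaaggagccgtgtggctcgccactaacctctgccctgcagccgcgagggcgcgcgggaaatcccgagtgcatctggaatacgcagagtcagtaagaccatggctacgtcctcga

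CDC25A and UHRF1 each carried 1 E2F core and 2 CCAAT boxes in these windows, CDC6 1 and 3, and POLE2 2 E2F cores with no CCAAT box. At the free base N, 1 of the POLE2 matches had A and the ORC6 match had T. The other E2F core matches printed had C or G there.

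**Figure D3:**
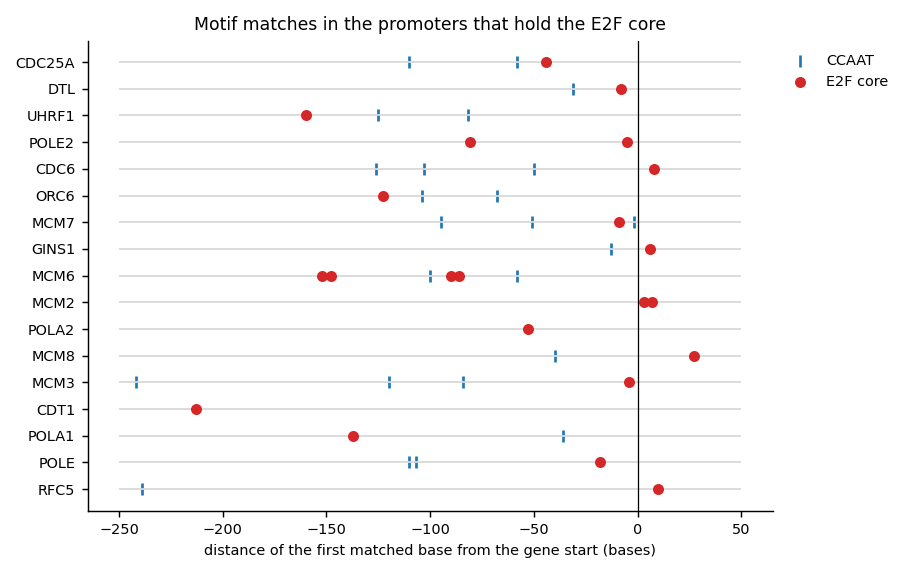
Positions of the E2F core (TTTNGCGC, red points) and CCAAT (blue ticks) in the 17 members' promoters that hold the E2F core, as the distance in bases of the first matched base from the gene start (vertical line). Genes are ordered from the lowest 16 h difference at the top, CDC25A at -2.63, to the highest at the bottom, RFC5 at 0.00. E2F core matches lie from -213 to 27.

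Helicase loading was uneven, as 4 of its 7 members fell, with a median of -1.02. ORC1, the largest ORC subunit and the one whose level is known to change over the cell cycle, had 8.03 under vemurafenib, 8.04 under AT9283, 8.30 under both drugs and 8.08 in DMSO at 6 h. At 16 h it had 6.22 under vemurafenib and 7.82 in DMSO, a difference of -1.60. ORC6, a small subunit needed for MCM loading, had 8.75 under vemurafenib, 8.99 under AT9283, 8.91 under both and 8.87 in DMSO at 6 h, then 7.22 under vemurafenib and 8.80 in DMSO at 16 h (-1.59). The 16 h vemurafenib array was the low one for both. The 3 other ORC subunits among the members did not pass the size rule. ORC3 had 8.04 under vemurafenib, 7.72 under AT9283, 7.95 under both and 7.81 in DMSO at 6 h, then 8.0 under vemurafenib and 7.96 in DMSO at 16 h, with the 2 arrays at 16 h inside the range of those at 6 h. ORC2 had 7.89 under vemurafenib and 7.97 in DMSO at 16 h, and ORC5 had 8.28 under vemurafenib and 8.62 in DMSO (-0.34). The ORC members were therefore split, with ORC1 and ORC6 at 33.0% and 33.3% of their DMSO values and the 3 others at 79.2% to 103%. ORC4, a subunit outside the member list, had 8.74 under vemurafenib and 8.76 in DMSO at 16 h. CDC6, the ATPase that joins ORC to load the helicase, had 8.90 under vemurafenib, 9.03 under AT9283, 8.90 under both drugs and 9.12 in DMSO at 6 h. After 16 h CDC6 had 7.02 under vemurafenib and 8.78 in DMSO, which is 29.5% of DMSO and the lowest share among the 7. CDT1, which escorts the MCM ring to the origin and is degraded in S phase, had 7.40 under vemurafenib and 8.42 in DMSO at 16 h (-1.02). CDT1 thus passed the size rule narrowly, and its second probe set, also at the floor, differed by -0.51.

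The CMG helicase moved as the most even of the larger groups, with 10 of 11 genes falling and a median of -1.57. All 6 subunits of the MCM ring fell, by differences from -1.16 (MCM3) to -1.65 (MCM4) with an SD of 0.17 across the 6, against 0.71 across all 51 members. MCM2 had 10.38 under vemurafenib, 10.24 under AT9283, 10.32 under both drugs and 10.37 in DMSO at 6 h, and 8.68 under vemurafenib and 10.12 in DMSO at 16 h. MCM4 had 10.14 under vemurafenib, 10.16 under AT9283, 10.19 under both drugs and 10.20 in DMSO at 6 h, and 8.42 under vemurafenib and 10.06 in DMSO at 16 h. Each stayed within a range of 0.14 over the 4 arrays at 6 h, and the 16 h vemurafenib array was the low one. At 16 h MCM3 had 8.15 under vemurafenib and 9.31 in DMSO. MCM5 had 7.32 under vemurafenib and 8.89 in DMSO and MCM6 8.56 under vemurafenib and 10.04 in DMSO at that time. MCM7 had 8.84 under vemurafenib and 10.43 in DMSO. The ring subunits under vemurafenib therefore kept 31.9% to 44.8% of their DMSO values. CDC45, which joins the ring at firing, had 7.60 under vemurafenib, 7.53 under AT9283, 7.52 under both and 7.72 in DMSO at 6 h, then 5.92 under vemurafenib and 7.57 in DMSO at 16 h (-1.65). Of the GINS complex, which bridges the helicase to polymerase epsilon, GINS2 had 9.26 under vemurafenib, 9.27 under AT9283, 9.28 under both and 9.31 in DMSO at 6 h, then 7.26 under vemurafenib and 8.94 in DMSO at 16 h, a difference of -1.67. GINS1 and GINS4 differed by -1.57 and -1.02. GINS3 had 7.62 under vemurafenib, 7.54 under AT9283, 7.67 under both and 7.54 in DMSO at 6 h, then 6.70 under vemurafenib and 7.52 in DMSO at 16 h, and its difference of -0.83 missed the size rule, the only one of the 11 to do so. The fall of GINS2 rested on 1 probe set marked as shared. Its other probe set did not reach the floor at 16 h, at 5.61 under vemurafenib and 5.53 in DMSO.

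**Figure D4:**
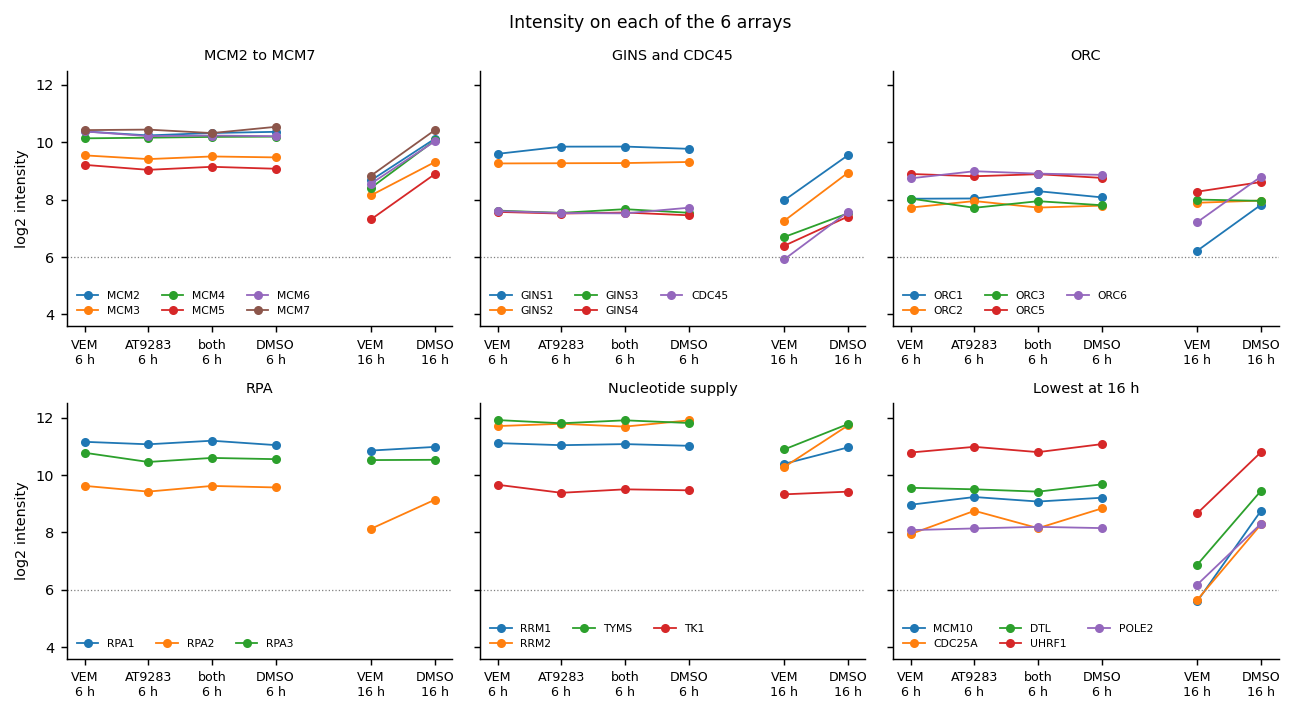
Log2 intensity of 28 members on each of the 6 arrays, in 6 panels, with 1 array per point. The last panel holds MCM10, CDC25A, DTL, UHRF1 and POLE2, picked for the lowest differences at 16 h, and the others go by complex or role. Lines join arrays of the same time for legibility only, and the dotted line is the floor of log2 6. The 4 arrays at 6 h lie close together except for CDC25A, and the 16 h vemurafenib array is more than 1 below DMSO for all 6 MCM subunits, while ORC2, ORC3, RPA1, RPA3 and TK1 differ by -0.13 to 0.05.

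Among the genes that start the helicase, MCM10 stood out. MCM10, which binds the CMG helicase and is needed to activate it, had 8.97 under vemurafenib, 9.24 under AT9283, 9.08 under both drugs and 9.21 in DMSO at 6 h. At 16 h it had 5.60 under vemurafenib and 8.76 in DMSO, which was 11.2% of DMSO or 8.91-fold lower, and its difference had rank 29 from the lowest among the 9469 genes at the floor. DBF4 and CDC7 form the kinase that phosphorylates the MCM ring to fire origins. DBF4, the regulatory subunit, had 9.87 under vemurafenib, 10.17 under AT9283, 10.21 under both and 9.93 in DMSO at 6 h, then 8.79 under vemurafenib and 9.79 in DMSO at 16 h, a difference of -1.0001 that passed the size rule at its edge. CDC7, the catalytic subunit, had 7.53 under vemurafenib, 7.34 under AT9283, 7.72 under both and 7.22 in DMSO at 6 h, then 6.46 under vemurafenib and 7.44 in DMSO at 16 h, a difference of -0.98 just short of it. The 2 subunits thus lay on either side of the rule by less than 0.03.

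Polymerase and primase genes differed less, with a median of -0.77 and 3 of 8 falling. POLE2, the second subunit of the leading-strand polymerase epsilon, had 8.08 under vemurafenib, 8.14 under AT9283, 8.20 under both drugs and 8.15 in DMSO at 6 h. POLE2 had 6.19 under vemurafenib and 8.31 in DMSO at 16 h, or 23% of DMSO. The catalytic subunit POLE had 6.34 under vemurafenib, 6.46 under AT9283, 6.49 under both and 6.40 in DMSO at 6 h, then 5.78 under vemurafenib and 6.08 in DMSO at 16 h (-0.30), near the floor on every array. In DNA polymerase alpha, which lays down primers with primase, the accessory subunit POLA2 had 8.12 under vemurafenib, 8.03 under AT9283, 8.15 under both and 8.12 in DMSO at 6 h, then 6.70 under vemurafenib and 7.95 in DMSO at 16 h (-1.25). The catalytic subunit POLA1 had 7.52 under vemurafenib and 8.04 in DMSO at 16 h (-0.52). In polymerase delta, which copies the lagging strand, the accessory subunit POLD3 had 7.91 under vemurafenib, 7.96 under AT9283, 8.04 under both and 7.93 in DMSO at 6 h, then 6.66 under vemurafenib and 7.92 in DMSO at 16 h (-1.25). The catalytic subunit POLD1 differed by -0.70. Among these members POLE2, POLA2 and POLD3 passed the size rule, and the catalytic subunits POLE, POLA1 and POLD1 did not. Of the accessory subunits outside the member list, POLE3 fell (-1.06) at 16 h, while POLD2 (-0.18), POLE4 (0.00) and POLD4 (0.92) did not. The POLA2 call rested on 1 probe set marked as shared. Without shared probe sets the POLA2 difference was -0.53, on a probe set under the floor, and with the mean over probe sets it was -0.59. The primase subunits PRIM1 and PRIM2 differed by -0.81 and -0.73. POLD3 had a second probe set at the floor, whose difference of -0.99 missed the rule.

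Of the clamp and its loader, 4 of 5 members fell, with a median of -1.29. PCNA, the sliding clamp that tethers polymerases to DNA, had 11.61 under vemurafenib, 11.62 under AT9283, 11.64 under both drugs and 11.62 in DMSO at 6 h. At 16 h it had 10.11 under vemurafenib and 11.40 in DMSO, or 40.9% of DMSO, with the 4 arrays at 6 h within 0.03 of each other. The RFC complex opens the clamp to load it. Its subunit RFC3 had 9.54 under vemurafenib, 9.70 under AT9283, 9.52 under both and 9.74 in DMSO at 6 h, then 7.81 under vemurafenib and 9.54 in DMSO at 16 h (-1.73). RFC4 had 9.57 under vemurafenib, 9.35 under AT9283, 9.45 under both and 9.45 in DMSO at 6 h, then 8.06 under vemurafenib and 9.42 in DMSO at 16 h (-1.35). Both were low on the 16 h vemurafenib array alone, and RFC2 differed by -1.10. RFC1, a subunit outside the member list, differed by -0.08 at 16 h. The RFC5 value depended on the probe set. The one used, with the highest mean, had 8.89 under vemurafenib, 8.96 under AT9283, 8.97 under both and 8.80 in DMSO at 6 h, then 9.00 under vemurafenib and 9.00 in DMSO at 16 h, while the 2 others both differed by -1.20. One of these had 7.82 under vemurafenib and 9.02 in DMSO at 16 h, and the other 6.93 and 8.12.

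Single-strand binding and strand maturation genes were split. FEN1, the nuclease that trims Okazaki fragments, had 10.69 under vemurafenib, 10.90 under AT9283, 10.90 under both drugs and 10.91 in DMSO at 6 h. FEN1 had 8.98 under vemurafenib and 10.59 in DMSO at 16 h, a difference of -1.60. LIG1, the ligase that seals those fragments, had 7.85 under vemurafenib, 7.67 under AT9283, 7.70 under both and 7.66 in DMSO at 6 h, then 7.28 under vemurafenib and 7.60 in DMSO at 16 h (-0.32). RPA is the single-strand binding protein of the fork. Its subunit RPA2 had 9.63 under vemurafenib, 9.43 under AT9283, 9.62 under both and 9.57 in DMSO at 6 h, then 8.13 under vemurafenib and 9.14 in DMSO at 16 h (-1.01). RPA3 had 10.78 under vemurafenib, 10.46 under AT9283, 10.60 under both and 10.56 in DMSO at 6 h, then 10.53 under vemurafenib and 10.53 in DMSO at 16 h, and RPA1 had 10.86 under vemurafenib and 10.98 in DMSO at 16 h. RPA1 and RPA3 thus kept 91.6% and 99.3% of their DMSO values at 16 h, and RPA2 49.7%.

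Of the 4 nucleotide supply genes, 1 fell, with a median of -0.73. RRM2, the small subunit of ribonucleotide reductase whose level is known to peak in S phase, had 11.71 under vemurafenib, 11.79 under AT9283, 11.69 under both drugs and 11.91 in DMSO at 6 h. RRM2 had 10.28 under vemurafenib and 11.73 in DMSO at 16 h, or 36.7% of DMSO, and its second probe set differed by -2.10. RRM1, the large subunit, is known to be steadier over the cell cycle, and had 11.12 under vemurafenib, 11.04 under AT9283, 11.08 under both and 11.02 in DMSO at 6 h, then 10.39 under vemurafenib and 10.97 in DMSO at 16 h (-0.57). TYMS, which makes thymidylate, had 11.92 under vemurafenib, 11.81 under AT9283, 11.91 under both and 11.82 in DMSO at 6 h, then 10.90 under vemurafenib and 11.78 in DMSO at 16 h. It differed by -0.88 at 16 h on this probe set and by -1.06 on another at the floor. TK1, the salvage thymidine kinase, had 9.66 under vemurafenib, 9.38 under AT9283, 9.51 under both and 9.47 in DMSO at 6 h, then 9.33 under vemurafenib and 9.42 in DMSO at 16 h. Its difference at 16 h was -0.09 on this probe set and -0.18 on the second, both far from the size rule.

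The S phase control genes were among the lowest. CDC25A, the phosphatase that activates CDK2, had 7.95 under vemurafenib, 8.76 under AT9283, 8.15 under both drugs and 8.84 in DMSO at 6 h. At 16 h it had 5.65 under vemurafenib and 8.28 in DMSO, or 16.2% of DMSO. CDC25A was low on both 6 h arrays with vemurafenib and on the 16 h one, and its 2 other probe sets, both at the floor, differed by -3.23 and -1.30 at 16 h. DTL, the substrate receptor that marks CDT1 for destruction at PCNA on chromatin, had 9.56 under vemurafenib, 9.51 under AT9283, 9.42 under both drugs and 9.68 in DMSO at 6 h. At 16 h DTL had 6.88 under vemurafenib and 9.45 in DMSO, a difference of -2.57, and the 4 arrays at 6 h stayed within a range of 0.25. CLSPN, below the floor throughout, had 5.14 under vemurafenib, 5.47 under AT9283, 5.39 under both and 5.43 in DMSO at 6 h, then 2.85 under vemurafenib and 4.92 in DMSO at 16 h.

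In the chromatin group, UHRF1, which brings the maintenance DNA methyltransferase to newly copied DNA, had 10.79 under vemurafenib, 10.99 under AT9283, 10.80 under both drugs and 11.08 in DMSO at 6 h. At 16 h UHRF1 had 8.67 under vemurafenib and 10.80 in DMSO, or 22.9% of DMSO. The histone chaperone CAF-1 deposits new histones behind the fork. Its large subunit CHAF1A had 8.46 under vemurafenib, 8.64 under AT9283, 8.58 under both and 8.70 in DMSO at 6 h, then 6.60 under vemurafenib and 8.21 in DMSO at 16 h (-1.61). Its middle subunit CHAF1B had 6.42 under vemurafenib, 6.24 under AT9283, 6.50 under both and 6.31 in DMSO at 6 h, then 5.58 under vemurafenib and 6.37 in DMSO at 16 h (-0.79), which missed the size rule. Both repair genes fell. UNG, the uracil glycosylase, had 10.40 under vemurafenib, 10.31 under AT9283, 10.23 under both and 10.35 in DMSO at 6 h, then 9.25 under vemurafenib and 10.25 in DMSO at 16 h, and MCM8, a helicase subunit of recombination, had 7.46 under vemurafenib, 7.71 under AT9283, 7.60 under both and 7.55 in DMSO at 6 h, then 6.27 under vemurafenib and 7.45 in DMSO at 16 h. Their differences at 16 h were -1.01 and -1.17.

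At 6 h the picture differed. Under vemurafenib alone 0 of 50 members at the floor fell and 0 rose, where 2.14% of 9095 genes at the floor fell and 1.03% rose. The member median was -0.00, with 25 positive and 26 negative differences. CDC25A was the lowest at -0.89, and it was the 1 member lower by a smaller size of 1.5-fold, which 5.05% of genes also passed downwards. Its 2 other probe sets were also lower, by -0.99 and -0.82. The next members were UHRF1 and CLSPN, both at -0.29, and the highest were PRIM1 at 0.35 and CDC7 at 0.31. The order of the members at 6 h resembled that at 16 h: across the 51 genes Pearson's r between them was 0.70 and Spearman's rho 0.75, or 0.69 and 0.74 over the 50 genes without CDC25A. The times share no array, but genes are not independent replicates. The same correlation over all genes was not computed, so the resemblance is not shown to be particular to the members.

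AT9283 alone moved no member past the size rule, with a median of -0.03 and a range from -0.19 (CDC45) to 0.23 (DBF4), where 0% of 8938 genes at the floor fell and 0.0224% rose. Under both drugs against DMSO, 0 members passed it too, with a median of 0.04 and a range from -0.69 (CDC25A) to 0.50 (CDC7), where 1.93% of genes fell and 0.639% rose. Both of these comparisons, and vemurafenib alone, share the 6 h DMSO array. Set against vemurafenib alone, both drugs gave a median of -0.00 and a range from -0.24 (PRIM1) to 0.34 (DBF4), again with 0 members past the rule, against 0.322% of genes lower and 0% higher. Set against AT9283 alone, both drugs gave a median of 0.04 and a range from -0.61 (CDC25A) to 0.38 (CDC7), with 0 members past the rule, against 1.97% of genes lower and 0.452% higher. CDC25A was thus lower on both 6 h arrays with vemurafenib (7.95 alone and 8.15 with AT9283) than on those without it (8.76 under AT9283 and 8.84 in DMSO). CDC7 was higher on the arrays with vemurafenib, at 7.53 alone and 7.72 with AT9283, against 7.34 under AT9283 and 7.22 in DMSO. AT9283 was not measured at 16 h in these arrays, so its difference there was not analysed here.

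Over time in vemurafenib, from the 6 h to the 16 h array, 35 members fell and 0 rose with a median of -1.39, where 3.7% of 9401 genes fell and 4.12% rose. Over the same time in DMSO, 0 members passed the size rule, where 0.0883% of 9055 genes fell and 0.188% rose. In DMSO the member median was -0.13, with 42 negative and 9 positive differences and a range from -0.55 (CDC25A) to 0.24 (PRIM2), against a median of -0.04 over all genes at the floor. Each of these sets a 16 h array against a 6 h one, and so carries both time and any difference in processing. The vemurafenib difference at 16 h less that at 6 h had a median of -1.23 and a range from -2.91 (MCM10) to -0.01 (ORC2), so that all 51 members were negative, as were 9812 of all 19676 genes. ORC2 turned to 0.03 under quantile normalization, to 0.18 with the mean over probe sets and to 0.07 in the limma fit described next.

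**Figure D5:**
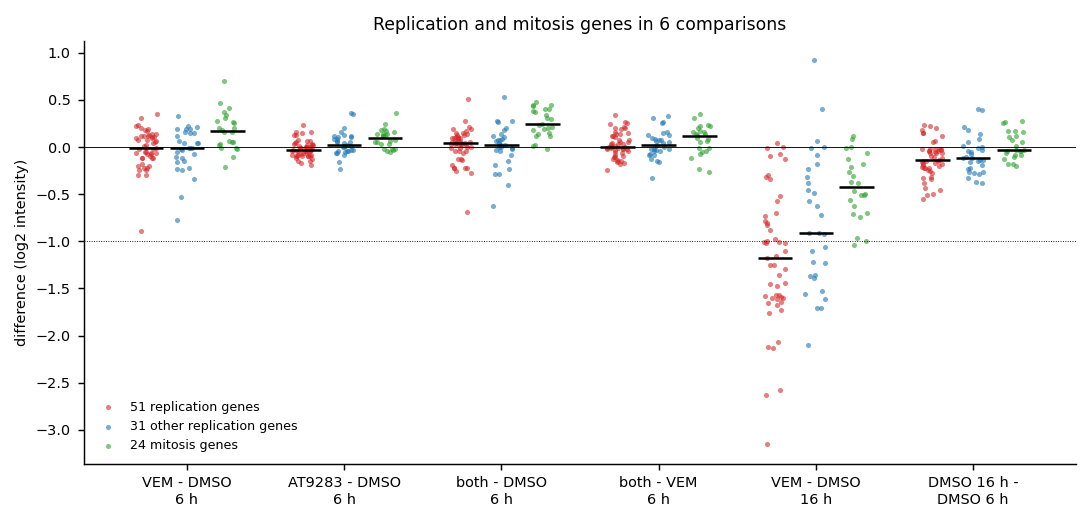
Differences in log2 intensity of the 51 replication genes (red), 31 other replication genes (blue) and 24 mitosis genes (green) in 6 comparisons, 1 point per gene, with horizontal bars at the medians and a dotted line at -1. Points spread sideways only for legibility. At 16 h the medians are -1.17, -0.91 and -0.42, and in the 5 other comparisons the medians lie between -0.13 and 0.24.

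A limma fit over all 6 arrays, with terms for vemurafenib at 6 h, AT9283, time and vemurafenib at 16 h, gave errors from 1 residual degree of freedom, the departure from additivity of the 2 drugs at 6 h. That is not replicate error, and the 16 h value borrows it from the 6 h arrays. A large share of all 9707 genes fitted was called. For vemurafenib at 16 h, 43 of 50 members were lower and 0 higher at an adjusted p under 0.05 (Benjamini-Hochberg), where 29.6% of genes were called lower and 26% higher. MCM10 was lower by -3.16 (SE 0.08, limma adjusted p 6.74e-05) and PCNA by -1.29 (SE 0.04, limma adjusted p 0.000135). The 7 members not called were ORC2, ORC3, POLE, RFC5, RPA1, RPA3 and TK1. For vemurafenib at 6 h, taken as the mean over cultures without and with AT9283, 4 members were lower and 6 higher, where 14.3% of genes were called lower and 15.4% higher. CDC25A was lower by -0.75 (SE 0.09, limma adjusted p 0.00452) and UHRF1 by -0.24 (SE 0.04, limma adjusted p 0.0160), while CDC7 was higher by 0.34 (SE 0.07, limma adjusted p 0.0199). RFC3 and RRM2 were the other lower members, and ORC3, PRIM1, RPA1, RPA3 and TYMS the other higher ones, all by less than 0.26. With an untrended prior, limma called 2 of these 10, CDC25A (adjusted p 0.0219) and CDC7 (adjusted p 0.0338), where 10.3% of genes were called lower and 9.74% higher. The change of the vemurafenib effect between the times was called for 43 members, all towards lower, against 17.7% of genes lower and 11.5% higher. For MCM10 it was -2.95 (SE 0.10, limma adjusted p 0.00113). AT9283 was called for 0 members and 0 genes by limma (lowest member adjusted p 0.249), with 7 members and 1596 genes at an unadjusted p under 0.05. A second limma fit used the 4 arrays of DMSO and vemurafenib with a block for time. This fit, whose residual is the change between the times, called 0 members (4 at an unadjusted p under 0.05, lowest adjusted p 0.148 for CDC25A), where 0.834% of genes were called lower and 0.34% higher.

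Other genes of replication, taken from a further list of 31 measured genes, gave a related result at 16 h. Of the 27 at the floor 12 fell and 0 rose, against the same 5.79% and 5.19% of all genes, with a median of -0.91. EXO1, a nuclease of mismatch repair and resection, had 6.04 under vemurafenib and 8.14 in DMSO at 16 h, and TIPIN, of the fork protection complex, 7.23 and 8.94. DSCC1, of the alternative clamp loader, differed by -1.70, the chromatin remodeller HELLS by -1.61, ATAD2 by -1.56 and GMNN, the inhibitor of CDT1, by -1.53. POLD4, the smallest subunit of polymerase delta, was highest with a difference of 0.92, and is named after its value was seen. At 6 h this list had 0 genes past the rule and a median of -0.01. Of 24 mitosis genes, 2 fell at 16 h, KIF23 (-1.04) and CCNA2 (-1.0), with a median of -0.42, and at 6 h 0 passed the rule, with a median of 0.17. KIF23 encodes a motor of cytokinesis, and CCNA2 encodes cyclin A, which acts in S phase as well as in mitosis. The lists were chosen with earlier results of these data known, and the difference between them was not tested.

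Where members had several probe sets, most fell on the same side of the size rule at 16 h. Of 23 members with more than 1 probe set at the floor, 19 had all on the same side, 13 of them all lower. The rest of the 19 had no probe set lower past the rule. Probe sets under the floor were not counted, among them those of MCM6 (-1.18), MCM4 (-0.14) and GINS2 (0.08). The same count over all genes was not made, so this agreement has no background to set it against. The 4 with probe sets on both sides were CDT1, POLD3, RFC5 and TYMS. The other 27 members at the floor rested on a single probe set there.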

How the data were processed

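Total RNA of each culture was turned into biotinylated cRNA and hybridised to 1 array, per the labels' protocols. What the authors deposited is an intensity per probe set, not in logs. The submitters' processing notes name RMA and no other tool, and the sources used here do not say if the 6 arrays were normalized jointly. Genes were named from the platform annotation. The 51 members, their roles and the other gene lists were chosen with earlier results of these data known.

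Of 54675 probe sets, 62 control probe sets and 1118 probe sets in 6 blocks were left out, since in these blocks the 6 h values sat on other rows than the 16 h values. There the DMSO arrays of the 2 times had an r of 0.455 as deposited, 0.984 with the order restored and 0.992 elsewhere. The remaining 53495 probe sets gave 19676 genes, each by the probe set naming that gene alone with the highest mean over the 6 arrays. Of 97 member probe sets 2 lay in the blocks, a second probe set of GINS2 and one of CLSPN. The deposited intensities were converted to log2 with no pseudocount and no further normalization.

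Each condition had 1 array, assigned from its label, so the main comparisons use a rule of size (log2 difference of at least 1, log2 of at least 6 on the higher array) and no test. Limma 3.58.1 in R 4.3.3, with a trended prior and Benjamini-Hochberg adjustment, was fitted to genes with at least 1 array at log2 6. The fit was run on simulated data with independent noise of the same size on all 6 arrays. Such data cannot show if the departure from additivity stands for array noise, or if the 16 h arrays vary like those at 6 h. Other steps used Python 3.11.15 with pandas 2.3.3 and numpy 2.4.6. Values in all 6 arrays are given for the 3 lowest and the highest member of each role at 16 h (all members of roles with 4 or fewer) and for PCNA. MCM2 was added to these. For the other lists, the members past the size rule at 16 h are named, up to 6 each. ORC4, RFC1, POLD2, POLD4, POLE3 and POLE4 were named after their values were seen. Alternatives changed the scaling, the probe set rule, the floor, the size, an added value of 16 before log2, the left-out rows and the prior of the fit.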

Additional observations from a re-analysis of the deposited data

Results flagged for a closer look

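For 43 of the 50 members fitted, the vemurafenib effect at 16 h differed from that at 6 h by the test of the change in the limma fit, and all 43 changes were negative. The error of that fit comes from the departure from additivity at 6 h and not from replicates, and 17.7% of all genes fitted were called lower by it. The values are the log2 effect at 16 h less that at 6 h. The lowest changes were those of MCM10 (-2.95), DTL (-2.47), POLE2 (-2.11), UHRF1 (-1.89), CDC25A (-1.88), ORC1 (-1.7) and MCM5 (-1.7). Next came GINS2 (-1.65), MCM4 (-1.63), CDC45 (-1.59), CDC6 (-1.59), MCM6 (-1.57), RFC3 (-1.54) and MCM2 (-1.5). These were followed by FEN1 (-1.49), GINS1 (-1.48), ORC6 (-1.48), MCM7 (-1.47), RFC4 (-1.46), CHAF1A (-1.46) and CDC7 (-1.32). The middle of the range held POLA2 (-1.3), PCNA (-1.3), RRM2 (-1.3), POLD3 (-1.28), MCM3 (-1.24), RFC2 (-1.19) and RPA2 (-1.14). Smaller changes were those of CDT1 (-1.12), GINS4 (-1.09), MCM8 (-1.07), PRIM1 (-1.06), DBF4 (-0.99), TYMS (-0.99) and UNG (-0.98). The smallest called changes were those of CHAF1B (-0.97), GINS3 (-0.93), POLD1 (-0.83), PRIM2 (-0.81), POLA1 (-0.65), RRM1 (-0.64), ORC5 (-0.44) and RPA1 (-0.25). The members not called were ORC2, ORC3, POLE, RFC5, RPA3, LIG1 and TK1. No group had enough arrays to look for a sample far from the others.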

How the results depend on the processing

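Each condition had 1 array, so no replicate numbers pair the arrays and no array could be left out. Vemurafenib minus DMSO was taken within each time, and the limma fit of 4 arrays, given below, used time as a block. The number of members that fell at 16 h ranged from 19 to 39 over the settings tried. The 39 came with a size of 1.5-fold, by which 14.9% of 9469 genes were also lower. The 19 came from the 38 members measured without shared or cross-hybridizing probe sets. Taking the mean over a gene's probe sets moved the member median to -1.04 for vemurafenib minus DMSO at 16 h and to -1.15 for vemurafenib at 16 h against its 6 h array. Leaving out probe sets whose suffix marks them as shared or cross-hybridizing, which left 38 members measured, 19 members fell in the first of these, with a median of -1.01, and 22 in the second, with a median of -1.21, where 6.1% and 3.71% of genes fell. GINS2 was then at 0.0752 at 16 h, from a probe set whose values were under the floor. With a size of 1.5-fold, 1 member (CDC25A) was lower at 6 h in each of vemurafenib minus DMSO, both drugs minus DMSO and both drugs minus AT9283, where 5.05%, 4.24% and 4.49% of genes were lower. With an untrended prior, limma called 2 members for vemurafenib at 6 h in place of 10. The limma fit of 4 arrays with time as a block called 0 members for vemurafenib, in place of 43, and its residual holds the change between the times. The cause of the other moves was not tested. With arrays centred on their medians there were 12 genes lower and 14 higher between the DMSO arrays, where the deposited scale gave 8 and 17. No scaling moved the median of all genes by over 0.1. Of the alternative values for the comparisons 228 stayed near the reported ones and 11 moved. Of those for single members, 651 stayed within 0.127, the SD across genes of AT9283 minus DMSO at 6 h. Of all these single values 15 had the other sign, 1 of them of a called difference (GINS2) and 14 of differences not called, of at most 0.166 in size. Restoring the order of the 6 h values, an alternative chosen after seeing the data, was among these. Values near the floor, such as those of MCM10, CDC45 and CDC25A under vemurafenib at 16 h, are limited by signal over background.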
